A study of Homo sapiens with 44 samples.

Results

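AXIN2, RNF43, ZNRF3, LGR5, ASCL2, NKD1, SP5, TCF7, LEF1 and NOTUM are genes that Wnt signalling is known to switch on in the intestine and elsewhere, and several of their products act back on the pathway. They were taken by gene symbol from the RNA tables of HCT116 cells and make up 10 of the 21272 genes in those tables. In the GAS41 experiment 8 of the 10 had a row and 7 had enough reads to be tested, whereas ASCL2 and LEF1 were not analysed there. In the doxorubicin experiment all 10 had a row and 7 were tested.

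HCT116 is a human colon cancer line, p53+/+ in the labels, and is known to carry an activating mutation of CTNNB1, the gene of beta-catenin. The GAS41 experiment had 12 poly-A RNA libraries in 4 groups of 3. Mut rescue libraries came from GAS41 knockout cells that stably express GFP-Flag-GAS41 with the Y74A and W93A changes in the YEATS domain, and wt rescue libraries from knockout cells that stably express the unchanged GFP-Flag-GAS41. GAS41-KO libraries came from knockout cells without a transgene, and WT libraries from HCT116 cells without the knockout. In the other experiment, HCT116 cells were given 500 nM doxorubicin, which poisons topoisomerase II and causes DNA breaks (3 libraries), or DMSO, its solvent (3 libraries). GAS41, made by YEATS4, reads acylated histone H3, and the question behind the series is its part in transcriptional repression. The labels call the libraries biological replicates but do not say how many clones or separate cultures they came from, so the p-values measure the spread between these libraries, which may be partly technical. The labels give no treatment time. ChIP and input material, 26 further samples, was not analysed here.

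Wnt ligands bind Frizzled and LRP5/6 receptors at the cell surface, which stops the destruction complex of AXIN, APC and GSK3 from marking beta-catenin for degradation. Beta-catenin then joins TCF/LEF proteins on DNA and their target genes are transcribed. AXIN2, NKD1, NOTUM, RNF43 and ZNRF3 are targets whose products dampen the signal, and LGR5 and ASCL2 mark stem cells of the intestinal crypt.

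Levels are given as normalized reads, the reads recovered from the deposited log2 values divided by the size factor of the library. Differences and their SE are on the deposited log2 scale, which shrinks the change of genes with few reads, and folds are ratios of mean normalized reads. A gene was called at an adjusted p under 0.05 (limma, Benjamini-Hochberg adjustment over all tested genes of a table). Lack of overlap between groups was common and was not used as a call. Of 14505 tested GAS41 genes, 10013 did not overlap for GAS41-KO against WT, 9973 for wt rescue against GAS41-KO and 4894 for mut rescue against GAS41-KO. The counts were 8403 between the rescue lines, and against WT 8305 for wt rescue and 8130 for mut rescue. With doxorubicin it was 9813 of 14195. Because the rows are not scaled to transcript length, levels are compared between groups and not between genes. The GAS41 libraries held 16857982 to 18546135 reads each and the doxorubicin and DMSO libraries 17442035 to 18894312. The wt rescue libraries stood apart in the share of genes at 0 reads, which was 7.2% in replicate 1, 8.55% in replicate 2 and 8.49% in replicate 3, against 4.88% to 5.61% in the other 3 GAS41 groups. Results of the members on wt rescue that change when its replicate 1 alone is used are given with that value. For the other genes named here no such value was computed. In the doxorubicin experiment the share was 10.3% to 11% in doxorubicin libraries and 15.4% to 16.5% in DMSO libraries. In bulk RNA, fewer cells that make a transcript and less of it per cell cannot be told apart.

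YEATS4 itself averaged 2482 ± 108 normalized reads in mut rescue, 3253 ± 323 in wt rescue, 349 ± 32.3 in GAS41-KO and 618 ± 8.98 in WT libraries (SD, n = 3 each). It was called lower in GAS41-KO than in WT, by 0.64 on the log2 scale (adjusted p = 2.09e-06), and reads of it remained in all 3 knockout libraries. Transcripts of the edited gene and of the transgene cannot be told apart in a table of genes. Mut rescue also held less YEATS4 RNA than wt rescue (log2 difference -0.37, adjusted p = 0.000443). In the doxorubicin experiment YEATS4 fell to 185 ± 10.7 with doxorubicin, against 668 ± 48.3 with DMSO (log2 difference -1.25, adjusted p = 3.58e-09).

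Epithelial identity was checked with 7 colon epithelium markers. KRT8, KRT18, KRT19, CDX2, EPCAM and CDH1 were detected in every group, and VIL1 was at 0 in wt rescue and had at most 1 normalized read on average in the other GAS41 groups. The 7 summed to 65769 to 79806 normalized reads in mut rescue, 76403 to 89253 in wt rescue, 63425 to 65290 in GAS41-KO and 56788 to 60419 in WT. EPCAM, an epithelial adhesion molecule, averaged 1670 ± 162 normalized reads in mut rescue, 9012 ± 782 in wt rescue, 915 ± 17 in GAS41-KO and 7503 ± 348 in WT libraries. CDH1, the gene of E-cadherin, averaged 163 ± 13.6 in mut rescue, 1350 ± 103 in wt rescue, 138 ± 15.1 in GAS41-KO and 1419 ± 17 in WT. The low groups of these adhesion genes, GAS41-KO and mut rescue, are also the groups in which AXIN2 was high. The CDX2 means had the same low groups, at 203 ± 29.1 in mut rescue, 262 ± 36.5 in wt rescue, 215 ± 19.8 in GAS41-KO and 235 ± 22 in WT. CDX2 reads overlapped, from 201 to 237 in GAS41-KO libraries and from 230 to 275 in WT libraries. KRT8, KRT18 and KRT19 did not share this split. KRT8 averaged 40057 ± 4359 in mut rescue, 41543 ± 3617 in wt rescue, 36697 ± 189 in GAS41-KO and 26988 ± 1326 in WT. KRT18 averaged 16706 ± 643 in GAS41-KO and 12799 ± 475 in WT. KRT19 averaged 10642 ± 1588 in mut rescue, 12535 ± 657 in wt rescue, 9707 ± 82.7 in GAS41-KO and 9845 ± 431 in WT. Of the 6 markers tested, 2 were called higher and 2 lower in GAS41-KO than in WT, where 26% and 26.6% of all genes were. Of 6 fibroblast markers 3 had a row, with summed levels of 262 to 335 in mut rescue, 161 to 179 in wt rescue, 240 to 311 in GAS41-KO and 270 to 308 in WT. COL3A1 among them was at 0 in wt rescue and averaged 18.6 ± 8.38 in GAS41-KO and 0.633 ± 0.548 in WT. The means of the other fibroblast markers differed the other way. COL1A1 averaged 242 ± 31.2 in GAS41-KO and 285 ± 19.6 in WT, and PDGFRB 4.64 ± 2.04 in GAS41-KO and 5.7 ± 0.96 in WT. The 3 blood and immune markers with a row summed to under 8 normalized reads in every GAS41 library and the 3 endothelial markers to under 21. With doxorubicin VIL1 averaged 46.5 ± 7.33, against 0.323 ± 0.56 with DMSO, and 6 of the 7 epithelial markers were called higher, all but EPCAM. Of all tested genes 32.3% were called higher. VIL1, at 0 or 1 read in each DMSO library, passed the filter on reads only through the doxorubicin libraries. The 7 epithelial markers summed to 145916 to 165100 with doxorubicin and 72241 to 87962 with DMSO. Within this sum KRT8 averaged 91614 ± 4983 with doxorubicin and 41323 ± 5768 with DMSO. KRT19 averaged 36919 ± 3521 with doxorubicin and 15758.5 ± 1726 with DMSO. EPCAM, the marker not called higher, averaged 4938 ± 409 with doxorubicin and 7198 ± 391 with DMSO. The 5 fibroblast markers with a row there summed to 327 to 406 with doxorubicin and 246 to 339 with DMSO, and the 4 blood and immune markers to 5.93 to 11.8 with doxorubicin and 0.97 to 4.07 with DMSO. The 3 endothelial markers summed to 30.6 to 32.6 with doxorubicin and 8.13 to 21.3 with DMSO. The part of these markers in the results below was not tested.

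In GAS41-KO libraries AXIN2 was 5.34-fold higher and RNF43 2.49-fold lower than in WT. SP5, at few reads, was 2.35-fold higher, TCF7 and NOTUM were higher by smaller folds, and ZNRF3 and NKD1 did not pass the test. Of 7 tested members, 4 were called higher in GAS41-KO than in WT (AXIN2, SP5, TCF7 and NOTUM), where 26% of all tested genes were called higher. RNF43 was the member called lower, where 26.6% of all genes were. SP5 reached the 10 reads of the filter in 6 of the 12 libraries, all 3 of GAS41-KO among them. The median difference was 0.22 over the 7 members and -0.01 over all tested genes.

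AXIN2 encodes a scaffold of the destruction complex and is widely used as a readout of Wnt signalling. It had 815, 862 and 841 normalized reads in mut rescue libraries, 207, 238 and 249 in wt rescue, 950, 926 and 993 in GAS41-KO and 178, 187 and 173 in WT. GAS41-KO and mut rescue thus held every high library, wt rescue and WT every low one, and none of the 4 groups overlapped another. The mean in GAS41-KO was 5.34-fold that in WT (956 ± 34.2 against 179 ± 7.28, log2 difference 1.81, SE 0.059, adjusted p = 4.59e-13). The wt rescue level was 4.13-fold lower than in GAS41-KO (231 ± 21.6, log2 difference -1.58, adjusted p = 2.48e-12). In mut rescue the mean of 839 ± 23.7 missed the threshold against GAS41-KO (log2 difference -0.16, interval of 95% from -0.29 to -0.04, adjusted p = 0.0806). The libraries of these groups did not overlap, as was so for 4894 of all 14505 tested genes. Between the rescue lines the mutant was 3.63-fold higher (log2 difference 1.42, adjusted p = 1.71e-11), and it was 4.69-fold higher than WT (log2 difference 1.65, adjusted p = 2.68e-12). In wt rescue AXIN2 was called above WT, by 0.23 (adjusted p = 0.0048), but with wt rescue replicate 1 alone the difference was 0.13 and not called (adjusted p = 0.254). The order of the means was therefore GAS41-KO, mut rescue, wt rescue and WT, with the top pair and, with that library alone, the bottom pair not told apart by the test.

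RNF43 encodes a membrane ubiquitin ligase that removes Frizzled receptors from the cell surface. It had 606, 591 and 610 normalized reads in mut rescue libraries, 450, 485 and 458 in wt rescue, 311, 346 and 330 in GAS41-KO and 807, 858 and 796 in WT. No group overlapped another, where 4894 to 10013 of all 14505 tested genes did not overlap, depending on the groups. The GAS41-KO mean of 329 ± 17.6 was 2.49-fold lower than the WT mean of 820 ± 33.4 (log2 difference -1.04, SE 0.056, adjusted p = 2.51e-10). Both rescue lines stood above GAS41-KO and below WT. Mut rescue, at 602 ± 10.1, was 1.83-fold higher than GAS41-KO (log2 difference 0.67, adjusted p = 8.22e-07). Wt rescue, at 465 ± 18.2, was 1.41-fold higher than GAS41-KO (log2 difference 0.37, adjusted p = 2.61e-05). The mutant thus held more RNF43 RNA than wt rescue (log2 difference 0.30, adjusted p = 0.000279). Against WT the differences were -0.37 in mut rescue (adjusted p = 5.08e-05) and -0.67 in wt rescue (adjusted p = 6.11e-07). All 6 pairs of groups were called for RNF43, also with wt rescue replicate 1 alone. RNF43 overlaps the lncRNA TSPOAP1-AS1 in the RefSeq annotation, and whether the counting used strand is not given in the sources used here.

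ZNRF3 encodes the ubiquitin ligase most like RNF43 in sequence and function. It had 311, 313 and 374 normalized reads in mut rescue libraries, 320, 408 and 372 in wt rescue, 395, 383 and 404 in GAS41-KO and 400, 415 and 390 in WT. The GAS41-KO and WT libraries overlapped, with a log2 difference of -0.02 (interval of 95% from -0.17 to 0.13, adjusted p = 0.836). Mut rescue was called below WT by 0.20 (means 333 ± 35.8 and 402 ± 12.4, adjusted p = 0.0289). Against GAS41-KO the mut rescue difference of -0.18 was not called (adjusted p = 0.102), but was without mut rescue replicate 3 (-0.24, adjusted p = 0.0355). That of mut rescue and wt rescue, -0.10 (adjusted p = 0.236), was called without wt rescue replicate 1 (-0.17, adjusted p = 0.0351). Wt rescue minus GAS41-KO was -0.08 (adjusted p = 0.32), and -0.22 and called with wt rescue replicate 1 alone (adjusted p = 0.0412). The call against WT was lost when any of mut rescue replicates 1 and 2 or any WT library was left out, with adjusted p from 0.051 to 0.111. Its antisense lncRNA ZNRF3-AS1 overlaps it, and its reads may be split between the rows.

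**Figure D1:**
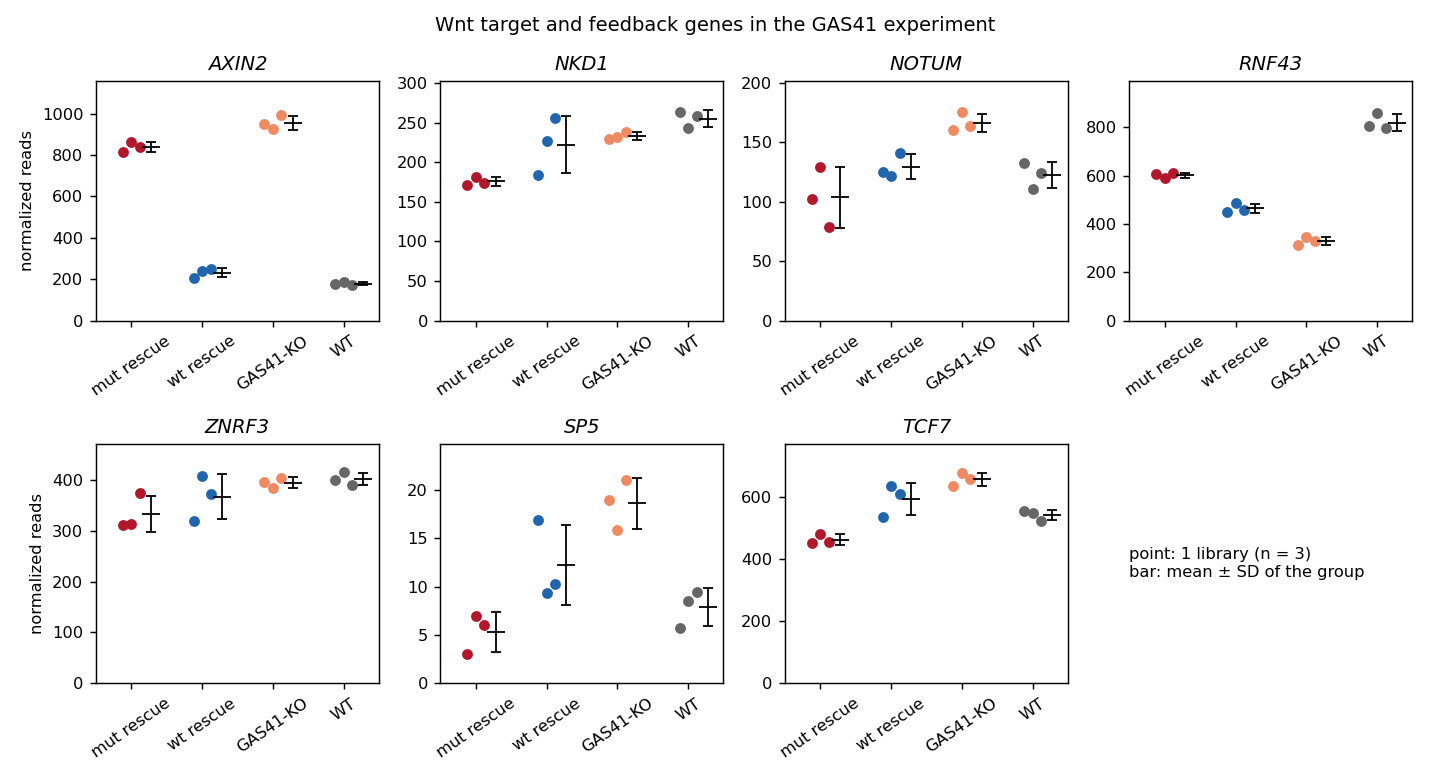
Normalized reads of the 7 tested members in each library of the GAS41 experiment, 1 point per library with the mean and SD of the group beside it, on axes that start at 0 and differ between genes. AXIN2 is at 815 or more in every mut rescue and GAS41-KO library and at 249 or less in every wt rescue and WT library, and RNF43 is lowest in GAS41-KO and highest in WT.

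NKD1, a protein that binds Dishevelled and dampens Wnt signalling, had 172, 182 and 174 normalized reads in mut rescue, 184, 226 and 256 in wt rescue, 229, 232 and 238 in GAS41-KO and 263, 244 and 258 in WT. The mut rescue libraries were below all others. The difference of GAS41-KO and WT was not called (log2 difference -0.09, interval of 95% from -0.23 to 0.06, adjusted p = 0.309). Mut rescue was called below GAS41-KO by 0.26 (adjusted p = 0.0179) and below WT by 0.34 (adjusted p = 0.000612). The call against GAS41-KO was lost without mut rescue replicate 1 (adjusted p = 0.0652), GAS41-KO replicate 2 (0.0554) or GAS41-KO replicate 3 (0.0699). Against wt rescue, whose libraries spread widest, the difference was -0.20 (adjusted p = 0.0157), and with wt rescue replicate 1 alone it was -0.04 (adjusted p = 0.69). Without wt rescue replicate 3 it also missed the threshold (adjusted p = 0.106), as it did in a fit of these groups only (0.0633). Wt rescue itself was not called against GAS41-KO (log2 difference -0.05, adjusted p = 0.525) or WT (-0.14, adjusted p = 0.105). With its replicate 1 alone both were called lower, by 0.21 against GAS41-KO (adjusted p = 0.0262) and by 0.30 against WT (adjusted p = 0.0143), and the difference from WT was also called without wt rescue replicate 3 (adjusted p = 0.0262).

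NOTUM encodes a secreted enzyme that inactivates Wnt ligands by removing their lipid. It had 103, 130 and 78.5 normalized reads in mut rescue, 125, 122 and 141 in wt rescue, 161, 175 and 164 in GAS41-KO and 133, 110 and 124 in WT. Every GAS41-KO library was above every library of the other 3 groups. It was called higher in GAS41-KO than in WT (means 167 ± 7.6 and 122 ± 11.2, log2 difference 0.25, adjusted p = 0.0122), a call lost without WT replicate 2 (adjusted p = 0.0585). Mut rescue was below GAS41-KO by 0.38 (mean 104 ± 25.6, adjusted p = 0.00301). Wt rescue was below GAS41-KO by 0.21 (mean 130 ± 10.3, adjusted p = 0.0273), but the call was lost without GAS41-KO replicate 2 (0.0871) or 3 (0.053) or wt rescue replicate 2 (0.0786), and with wt rescue replicate 1 alone (0.0869). After quantile normalization that difference was -0.08 and not called (adjusted p = 0.40). The rescue lines were not told apart (log2 difference -0.18, adjusted p = 0.0579), and without mut rescue replicate 2 that difference was -0.27 and called (adjusted p = 0.00417), as it was after quantile normalization (adjusted p = 0.00829). Mut rescue minus WT, -0.13 and not called (adjusted p = 0.175), was -0.22 and called without mut rescue replicate 2 (adjusted p = 0.0176).

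TCF7 encodes TCF1, a TCF/LEF protein that binds DNA. It had 452, 481 and 453 normalized reads in mut rescue, 535, 634 and 607 in wt rescue, 634, 675 and 656 in GAS41-KO and 554, 548 and 523 in WT. The mut rescue libraries were the lowest, and the wt rescue libraries spanned the range from WT to GAS41-KO. TCF7 was higher in GAS41-KO than in WT (means 655 ± 20.8 and 541 ± 16.4, log2 difference 0.22, adjusted p = 0.00598). In mut rescue it was lower than in GAS41-KO by 0.40 (adjusted p = 0.00031) and lower than in WT by 0.18 (mean 462 ± 16.6, adjusted p = 0.0237). The call against WT was lost without mut rescue replicate 1 or 3 or WT replicate 1 or 2, with adjusted p from 0.058 to 0.0792. Mut rescue was below wt rescue by 0.28 (adjusted p = 0.000913), or by 0.17 with wt rescue replicate 1 alone (adjusted p = 0.0845). Wt rescue was not called against GAS41-KO (log2 difference -0.12, adjusted p = 0.0928) but was with its replicate 1 alone (-0.24, adjusted p = 0.0144) and without its replicate 2 (adjusted p = 0.0423). Against WT it was not called (log2 difference 0.10, adjusted p = 0.178), but was without wt rescue replicate 1 (0.16, adjusted p = 0.0249). TCF7 overlaps VDAC1 in the RefSeq annotation, and both have a row.

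SP5, a zinc finger repressor that is itself a direct Wnt target, had few reads. There were 2.99, 6.98 and 6.04 normalized reads in mut rescue, 16.9, 9.39 and 10.3 in wt rescue, 19, 15.8 and 21 in GAS41-KO and 5.73, 8.5 and 9.49 in WT. The mut rescue libraries overlapped those of WT and no others, and the GAS41-KO libraries overlapped those of wt rescue. The mean was 2.35-fold higher in GAS41-KO than in WT (18.6 ± 2.61 against 7.9 ± 1.95, log2 difference 0.24, adjusted p = 0.00384). In mut rescue it was 3.49-fold lower than in GAS41-KO (5.34 ± 2.09, log2 difference -0.33, adjusted p = 0.00203). Mut rescue was also below wt rescue (log2 difference -0.19, adjusted p = 0.0145), a call lost without mut rescue replicate 1 (0.0752) or wt rescue replicate 1 (0.0755). Wt rescue minus GAS41-KO, -0.13 and not called (adjusted p = 0.0681), was called without wt rescue replicate 1 (-0.19, adjusted p = 0.0191), and wt rescue minus WT, 0.11 (adjusted p = 0.163), after quantile normalization (0.18, adjusted p = 0.026). LGR5, the R-spondin receptor that marks crypt stem cells, was not tested, having only 0 to 4 reads in each GAS41 library.

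**Figure D2:**
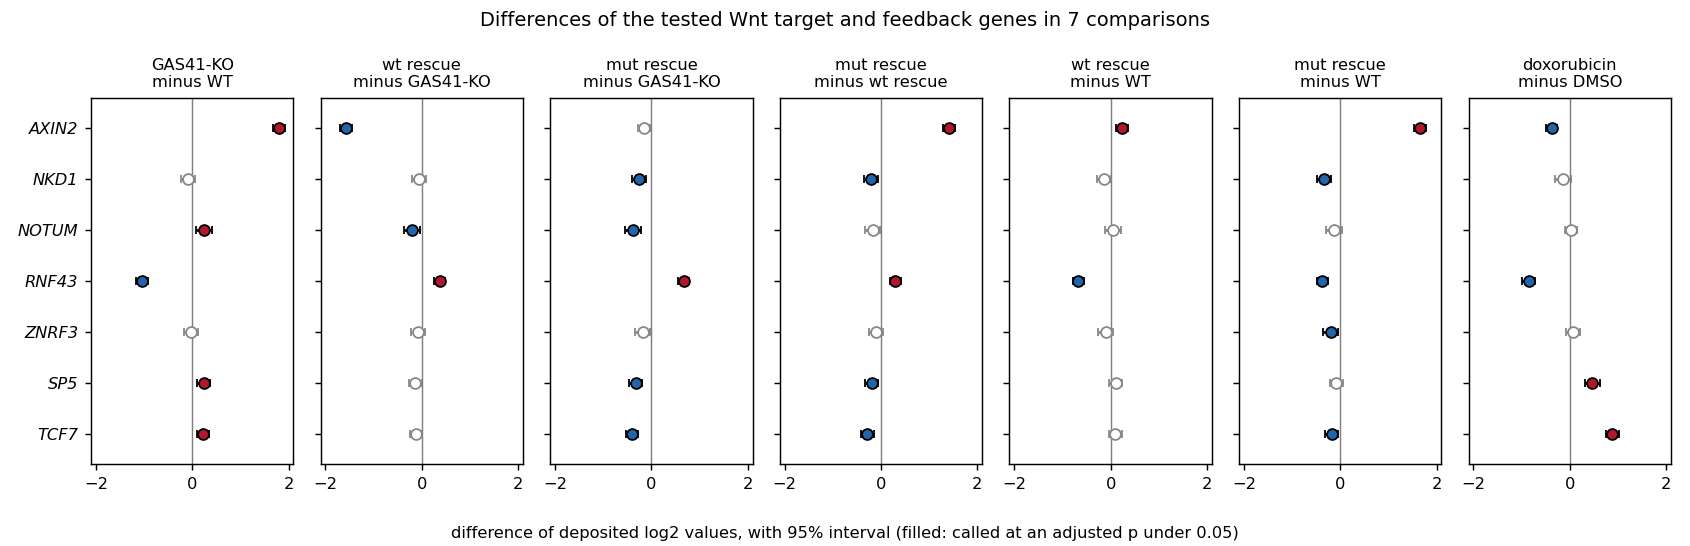
Differences of the deposited log2 values of the 7 tested members in the 7 comparisons, with intervals of 95%, red where called higher, blue where called lower and open where not called. AXIN2 spans from -1.58 for wt rescue minus GAS41-KO to 1.81 for GAS41-KO minus WT, RNF43 is called in each of the 7 panels, and the intervals of the other members lie within 1 log2 unit of 0 except for TCF7 with doxorubicin.

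Set against the background, the wt rescue line had 3 calls among the 7 tested members relative to GAS41-KO. RNF43 was called higher (33% of all genes were), and AXIN2 and NOTUM were called lower (33% of all genes were). With wt rescue replicate 1 alone the differences were 0.34 for RNF43, -1.68 for AXIN2 and -0.22 for ZNRF3. NKD1 and TCF7 were then lower by the differences given above, and the NOTUM call depended on the libraries used. Relative to GAS41-KO the mut rescue line had RNF43 called higher (5.92% of all genes were) and 4 members called lower, NKD1, SP5, TCF7 and NOTUM (9% of all genes were). Mut rescue over wt rescue had AXIN2 and RNF43 called higher (29.8% of all genes were) and NKD1, SP5 and TCF7 called lower (31.3% of all genes were). The differences of NKD1 and TCF7 were smaller with wt rescue replicate 1 alone, as given above. Against WT, wt rescue had AXIN2 called higher (27.4% of all genes were) and RNF43 called lower (22.7% of all genes were). With its replicate 1 alone the AXIN2 difference was smaller and that of NKD1 larger, as given above. Mut rescue against WT had AXIN2 called higher (23.5% of all genes were) and RNF43, ZNRF3, NKD1 and TCF7 called lower (22.9% of all genes were). The comparisons share libraries, so these counts are not independent of each other.

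RefSeq windows of 300 bases, from 250 before to 50 after an annotated start, held a promoter for RNF43, SP5, TCF7 and LEF1 in build GRCh38.p14. The windows were searched for CTTTGA, the core letters that TCF/LEF proteins are known to bind, on both strands, with the opposite strand reading TCAAAG. The SP5 window had 3 matches and the windows of RNF43, TCF7 and LEF1 none. Of all 35116 windows 12.9% had at least 1 match, 1.29% at least 2 and 0.0997% at least 3. DKK1, the gene of a secreted Wnt inhibitor that is no member, is shown beside them, a choice made after its values were seen, because GAS41-KO and mut rescue were its high groups as they were for AXIN2, and its window had 2 matches. The 3 windows of TCF7L2, which had the same high groups, and that of CTNNB1 had none. Among the SP5 matches 1 is part of the longer CTTTGAT, which 2.62% of all windows hold at least once. The SP5 window lies at chr2:170715087-170715386 on the plus strand, the DKK1 window at chr10:52314031-52314330 on the plus strand and the first RNF43 window, shown for a member without a match, at chr17:58417485-58417784 on the minus strand. Capitals mark the matches, which are a description of letters and not of bound sites.
SP5: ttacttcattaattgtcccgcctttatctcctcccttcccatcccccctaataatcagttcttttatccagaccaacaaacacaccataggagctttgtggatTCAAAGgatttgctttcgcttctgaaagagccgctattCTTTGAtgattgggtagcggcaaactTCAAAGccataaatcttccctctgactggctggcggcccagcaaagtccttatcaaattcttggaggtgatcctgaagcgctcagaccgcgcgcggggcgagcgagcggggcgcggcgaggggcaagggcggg
DKK1: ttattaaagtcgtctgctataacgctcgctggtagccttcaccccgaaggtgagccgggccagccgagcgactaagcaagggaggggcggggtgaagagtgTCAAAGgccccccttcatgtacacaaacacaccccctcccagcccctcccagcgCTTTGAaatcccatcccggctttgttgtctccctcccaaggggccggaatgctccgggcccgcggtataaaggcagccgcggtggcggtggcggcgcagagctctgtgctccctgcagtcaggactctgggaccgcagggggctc
RNF43: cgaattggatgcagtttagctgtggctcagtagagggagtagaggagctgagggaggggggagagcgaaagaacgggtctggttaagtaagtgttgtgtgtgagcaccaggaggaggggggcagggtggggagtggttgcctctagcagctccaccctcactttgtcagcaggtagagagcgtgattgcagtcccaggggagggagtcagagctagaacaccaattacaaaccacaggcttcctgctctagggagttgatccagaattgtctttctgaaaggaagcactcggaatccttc

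With doxorubicin TCF7 and SP5 rose, AXIN2 and RNF43 fell, and ZNRF3, NKD1 and NOTUM did not pass the test. Among all tested genes 32.3% were called higher and 33.4% lower, against 2 and 2 of the 7 members. The median difference was 0.03 over the members and -0.01 over all genes.

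TCF7 had 1358, 1296 and 1243 normalized reads in doxorubicin libraries, against 616, 635 and 599 in DMSO libraries. The groups lay far apart, and the mean was 2.11-fold higher (1299 ± 57.7 against 617 ± 18.3, log2 difference 0.88, SE 0.064, adjusted p = 6.97e-08). SP5 had 69.1, 60.1 and 44.4 in doxorubicin libraries, against 24.4, 14.9 and 12.6 in DMSO libraries, a mean 3.34-fold higher without overlap (57.9 ± 12.5 against 17.3 ± 6.25, log2 difference 0.47, adjusted p = 5.83e-05). RNF43 had 425, 369 and 383 in doxorubicin libraries, against 854, 880 and 835 in DMSO libraries. It fell 2.18-fold, again without overlap (392 ± 28.8 against 857 ± 22.6, log2 difference -0.86, adjusted p = 1.06e-07). AXIN2 had 95.8, 107 and 108 in doxorubicin libraries, against 178, 178 and 173 in DMSO libraries. Its mean fell 1.70-fold (103 ± 6.58 against 176 ± 2.95, log2 difference -0.38, adjusted p = 5.5e-05), and the groups did not overlap. These 4 calls held with any library left out. Of all 14195 tested genes 9813 had groups that did not overlap.

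For the other tested members the groups overlapped. NKD1 had 197, 132 and 179 normalized reads with doxorubicin and 206, 200 and 194 with DMSO, which overlapped (log2 difference -0.14, interval of 95% from -0.30 to 0.02, adjusted p = 0.117). Without doxorubicin replicate 1 it was called lower (log2 difference -0.20, adjusted p = 0.0438), as it was after quantile normalization (adjusted p = 0.0157). ZNRF3 had 376, 321 and 373 with doxorubicin and 359, 302 and 337 with DMSO (log2 difference 0.07, interval of 95% from -0.08 to 0.22, adjusted p = 0.407). NOTUM had 172, 165 and 157 with doxorubicin and 173, 161 and 145 with DMSO (log2 difference 0.03, interval of 95% from -0.11 to 0.16, adjusted p = 0.73). LGR5 had 2, 1 and 5 reads with doxorubicin and 0, 1 and 3 with DMSO. ASCL2, a transcription factor of crypt stem cells, had 0 or 1 read in every library. LEF1, a TCF/LEF protein, had 1, 2 and 2 reads with doxorubicin and 0 in each DMSO library. These 3 genes are at the limit of what this depth can show, where a count of 0 allows up to 3 reads, and none was tested.

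**Figure D3:**
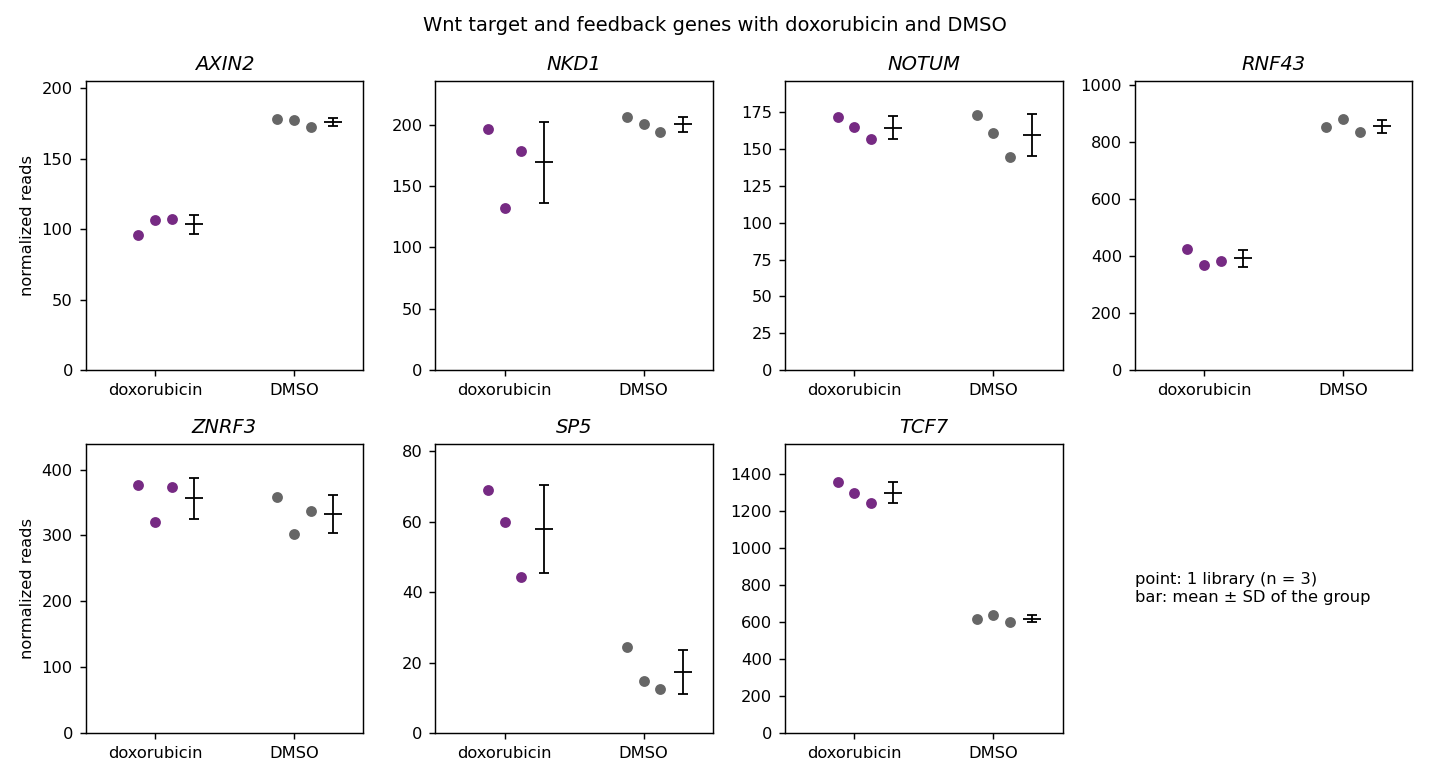
Normalized reads of the 7 tested members in each doxorubicin and DMSO library, 1 point per library with the mean and SD of the group beside it, on axes that start at 0 and differ between genes. TCF7 and SP5 are higher in every doxorubicin library, AXIN2 and RNF43 are lower in every doxorubicin library, and the groups overlap for NKD1, NOTUM and ZNRF3.

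The remaining genes of the pathway were taken as 6 lists by role, 104 genes in all, of which 77 were tested in the GAS41 experiment and 78 in the doxorubicin experiment. In GAS41-KO 34 were called higher and 15 lower than in WT, where 26% and 26.6% of all genes were. Their median difference was 0.11, against -0.01 over all tested genes. Relative to GAS41-KO, wt rescue had 21 called higher and 41 lower with a median of -0.19, where 33% of all genes were called in each direction. Mut rescue had 5 called higher and 19 lower with a median of -0.07, where 5.92% and 9% of all genes were. The wt rescue counts of these lists were not recomputed with its replicate 1 alone. With doxorubicin 32 were called higher and 28 lower with a median of 0.02, where 32.3% and 33.4% of all genes were. The lists were chosen with earlier results of these data known, so these counts are a description and not a test.

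For GAS41-KO against WT, 26% of all tested genes were called higher and 26.6% lower. Of 16 tested ligands and genes of ligand export, 7 were called higher and 6 lower in GAS41-KO than in WT. WNT11 among them had 20 to 23 reads in GAS41-KO libraries and at most 10 in any other library, so it passed the filter through its high group. WNT10B averaged 83 ± 6.21 normalized reads in GAS41-KO and 225 ± 26 in WT (log2 difference -0.79, adjusted p = 1.75e-07). WNT7B averaged 165 ± 15.8 in GAS41-KO and 368 ± 6.13 in WT (log2 difference -0.77, adjusted p = 3.68e-08). WLS, the carrier that takes Wnt proteins to the cell surface, was higher in GAS41-KO by 0.44 (adjusted p = 2.77e-05), and WNT16 by 0.38 (adjusted p = 0.000425). These ligands were among the called changes of both signs, so the list had no common direction. Of 14 tested receptors 8 were called higher and 2 lower. FZD4 averaged 369 ± 11.5 in GAS41-KO and 222 ± 12.8 in WT (log2 difference 0.51, adjusted p = 8.06e-06), and FZD1 was higher by 0.49 (adjusted p = 5.65e-05). The lower receptors were FZD3 (log2 difference -0.40, adjusted p = 0.00562) and FZD5 (log2 difference -0.38, adjusted p = 0.000114).

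Of 5 tested secreted and surface inhibitors, 3 were called higher and 1 lower in GAS41-KO than in WT. Over all tested genes the shares were 26% and 26.6%. DKK1, which blocks LRP5/6, averaged 14093 ± 793 normalized reads in mut rescue, 6490 ± 469 in wt rescue, 10756 ± 391 in GAS41-KO and 6256 ± 124 in WT. As with AXIN2, mut rescue and GAS41-KO were the high groups. The log2 difference was 0.77 for GAS41-KO minus WT (adjusted p = 7.37e-08), -0.72 for wt rescue minus GAS41-KO (adjusted p = 1.07e-07) and 1.10 for mut rescue minus wt rescue (adjusted p = 1.33e-09). Unlike AXIN2, DKK1 was called higher in mut rescue than in GAS41-KO, by 0.38 (adjusted p = 0.00081). KREMEN1, a DKK receptor, was higher in GAS41-KO than in WT by 0.58 (adjusted p = 3.46e-06), and the related KREMEN2 lower (log2 difference -0.22, adjusted p = 0.0363).

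Of 16 tested genes of the cytoplasmic signal and the destruction complex, 4 were called higher and 3 lower in GAS41-KO than in WT. Over all tested genes the shares were 26% and 26.6%. AMER1, a partner of APC, averaged 127 ± 1.71 in GAS41-KO and 228 ± 10.6 in WT (log2 difference -0.50, adjusted p = 4.26e-06), and DVL1, a Dishevelled gene, was lower by 0.31 (adjusted p = 0.00323). BTRC, the ubiquitin ligase subunit that recognises phosphorylated beta-catenin, was higher by 0.25 (adjusted p = 0.00542), and GSK3B by 0.21 (adjusted p = 0.0173). CTNNB1 averaged 9559 ± 280 in GAS41-KO and 8286 ± 300 in WT and was called higher by 0.20 (adjusted p = 0.0143). Of 11 tested nuclear factors 5 were called higher and 1 lower. TCF7L2, the TCF/LEF protein most used in colon epithelium, averaged 4910 ± 370 in mut rescue, 3026 ± 170 in wt rescue, 4772 ± 199 in GAS41-KO and 3145 ± 14.2 in WT. Its level split the groups as that of AXIN2 did, with 0.58 for GAS41-KO minus WT (adjusted p = 1.93e-06) and 0.67 for mut rescue minus wt rescue (adjusted p = 4.23e-07). AES, a Groucho-family gene, was higher by 0.47 (adjusted p = 0.000153) and TLE1, a Groucho corepressor, lower (log2 difference -0.39, adjusted p = 3.56e-05).

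Of 15 further Wnt target genes tested, 7 were called higher and 2 lower in GAS41-KO than in WT. Over all tested genes the shares were 26% and 26.6%. ENC1 averaged 5011 ± 174 normalized reads in mut rescue, 2254 ± 89.1 in wt rescue, 4997 ± 94.6 in GAS41-KO and 1271 ± 64.9 in WT (log2 difference 1.86 for GAS41-KO minus WT, adjusted p = 2.76e-13). TIAM1, a Rac activator, averaged 3289 ± 64.1 in mut rescue, 2055 ± 145 in wt rescue, 4475 ± 98.1 in GAS41-KO and 1551 ± 50.4 in WT (log2 difference 1.44, adjusted p = 1.03e-11). MYC, a transcription factor that drives growth, differed in the other direction, with 5218 ± 635 in mut rescue, 7304 ± 684 in wt rescue, 3628 ± 50.5 in GAS41-KO and 5812 ± 96.1 in WT. It was lower in GAS41-KO than in WT by 0.66 (adjusted p = 4.49e-06) and was higher than in GAS41-KO in both rescue lines, by 0.50 in mut rescue (adjusted p = 0.000517) and by 0.98 in wt rescue (adjusted p = 3.6e-08). CEMIP was lower in GAS41-KO than in WT by 0.34 (adjusted p = 0.0014). CCND1, the gene of cyclin D1, averaged 13678 ± 288 in GAS41-KO and 13159 ± 89.5 in WT and was not called (log2 difference 0.05, adjusted p = 0.485). It averaged 12515 ± 448 in mut rescue, against 19793 ± 1564 in wt rescue, where it was highest (log2 difference -0.65 for mut rescue minus wt rescue, adjusted p = 3.35e-07).

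**Figure D4:**
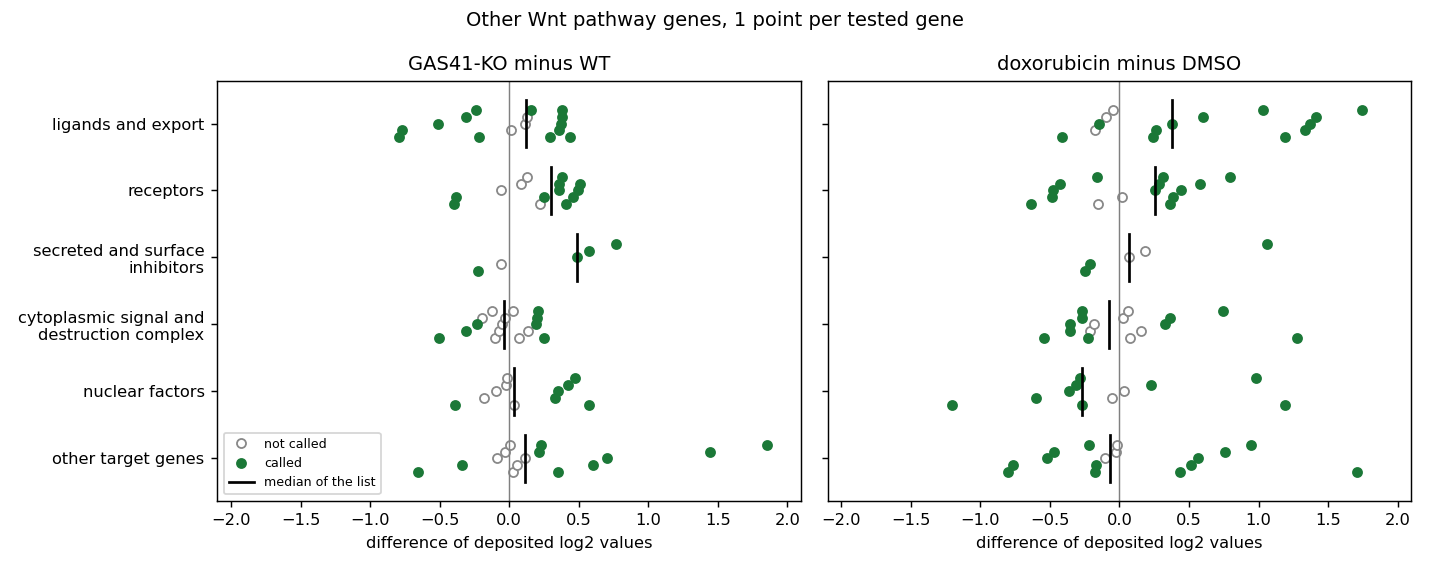
Differences of the deposited log2 values of the other Wnt pathway genes, 1 point per tested gene in 6 lists by role, for GAS41-KO minus WT on the left and doxorubicin minus DMSO on the right, filled where called, with the median of each list as a bar. Lists hold called genes of both signs in each panel, and ENC1 at 1.86 and TIAM1 at 1.44 are the rightmost points for GAS41-KO.

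With doxorubicin 10 of 15 tested ligand genes were called higher and 2 lower, and of 15 tested receptors 8 were called higher and 5 lower. LGR6, a receptor, had 36 to 45 reads with doxorubicin and 3 to 6 with DMSO. TNFRSF19, a further target, had 4 to 8 with doxorubicin and 15 to 18 with DMSO. Each passed the filter on reads only through its high group. WNT4, WNT11, FZD9 and PYGO1 also had fewer than 10 reads in a DMSO library (lowest 7, 6, 8 and 9). FRZB and MMP7 had fewer than 10 in a doxorubicin library (lowest 6 and 3). Of 5 inhibitors 1 was called higher and 2 lower, of 16 cytoplasmic genes 4 and 6, of 11 nuclear factors 3 and 6, and of 16 further targets 6 and 7. The shares over all genes were 32.3% higher and 33.4% lower, and the counts of several lists, the further targets among them, lie near these shares. TCF7L2 fell to 1060 ± 50.3 with doxorubicin, against 2705 ± 83.1 with DMSO (log2 difference -1.21, adjusted p = 4.89e-09), while its relative TCF7 rose. CTNNB1 fell to 7602 ± 128, against 9203 ± 434 with DMSO (log2 difference -0.27, adjusted p = 0.00458). CCND1 averaged 19246 ± 428 with doxorubicin and 11306 ± 214 with DMSO (log2 difference 0.76, adjusted p = 7.49e-07). MYC was called lower just under the threshold, at 6041 ± 72.3 with doxorubicin and 6826 ± 377 with DMSO (log2 difference -0.17, adjusted p = 0.0499). DKK1 averaged 8184 ± 114 with doxorubicin and 7205 ± 596 with DMSO and was not called (log2 difference 0.18, adjusted p = 0.0511).

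The following genes were chosen after their values were seen. WNT4 averaged 311 ± 12.4 normalized reads with doxorubicin and 13.3 ± 6.19 with DMSO, a 23.4-fold difference (log2 difference 1.75, adjusted p = 2.02e-10). PORCN, the enzyme that adds the lipid to Wnt ligands, averaged 637 ± 10.6 with doxorubicin and 154 ± 16.7 with DMSO (log2 difference 1.34, adjusted p = 1.31e-09). NKD2, the relative of NKD1, averaged 774 ± 62.5 with doxorubicin and 219 ± 19.6 with DMSO (log2 difference 1.28, adjusted p = 4.92e-09). EPHB3, an ephrin receptor and Wnt target of the crypt, averaged 727 ± 17.9 with doxorubicin and 112 ± 18.3 with DMSO (log2 difference 1.71, adjusted p = 2.42e-10). Doxorubicin thus raised NKD2 where NKD1 was not called, though the difference between these genes was not tested.

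The protein-coding genes whose pattern over the 12 GAS41 libraries was most like that of AXIN2 were DUSP4, AHNAK2, SERPINE2, ZFYVE1 and ANO1. Their Pearson correlations of the log2 values ran from 0.998 for DUSP4 to 0.995 for ANO1. They were taken from 10570 genes with a mean of at least 100 normalized reads, passing over genes that are not protein-coding. For RNF43 they were POLG2, EPPK1, EHF, FAT1 and FAM107B, with correlations from 0.905 to 0.880. The 12 points are 4 groups of 3, so these values mostly describe differences between the group means. POLG2 and EHF had their group means in the order of RNF43, whereas EPPK1, FAT1 and FAM107B did not.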

How the data were processed

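Poly-A RNA of the GAS41 experiment was sequenced on a BGISEQ-500, and that of the doxorubicin experiment on an Illumina machine, as the labels state. Tools named in the submitters' processing notes are TopHat2 2.1.0, Bowtie 1.0.1, Trimmomatic 0.36, CASAVA 1.4, DESeq2 and HTSeq. Both hg19 and mm9 are named as builds there, and no role is given for any of these. The authors deposited log2 values on a variance-stabilized scale in tables named as counts. The inverse of that scale gave whole reads for every value (to within 6.8e-09 of a read), and size factors equal to median-ratio factors. Going 1 log2 above the lowest value takes 39.1 normalized reads (GAS41) or 52.6 (doxorubicin). The 2 tables were normalized separately, and tests stay within a table.

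Genes that reached 10 recovered reads in 3 or more libraries were tested with limma 3.58.1 in R 4.3.3 on the deposited values, with a mean-dependent prior variance, 1 fit per table and Benjamini-Hochberg adjustment over 14505 and 14195 genes. The plan had named a count test; limma on the values as deposited took its place, and the recovered reads were fitted with voom as an alternative. Of 200 genes changed in simulated data, 200 were found in each table. The planted changes were large, in genes with many reads, and the spread was set and not taken from these libraries. The simulation thus does not cover small folds or genes with few reads, such as SP5. Python 3.11.15 and matplotlib 3.10.9 drew the plots. Besides the members, YEATS4, MYC, CCND1, CTNNB1, TCF7L2 and DKK1 are given whatever their values, and from each pathway list up to 2 of the largest called differences of each sign in GAS41-KO over WT. The members and lists were chosen with earlier results of these data known. The alternatives were no filter, the replicate number as a block, a fit on only the groups compared, voom on the recovered reads, quantile normalization, wt rescue replicate 1 only and each library left out.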

Additional observations from a re-analysis of the deposited data

How the results depend on the processing

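Each of the 49 results on the 7 tested members in 7 comparisons was recomputed. Leaving out 1 library gave 294 values, of which 264 kept direction and call, 19 lost the call, 9 gained one and 2 changed sign. The other settings gave 257 values, of which 240 kept direction and call, 6 lost the call, 7 gained one and 4 changed sign. No filter, the replicate block and voom on the recovered reads changed no call of a member. The sign changes were all of differences that were not called. After quantile normalization NKD1 for wt rescue minus GAS41-KO was 0.045 and NOTUM for doxorubicin minus DMSO was -0.064. With wt rescue replicate 1 only, which assumes that a lone library varies like the other groups, ZNRF3 for mut rescue minus wt rescue was 0.039 and TCF7 for wt rescue minus WT was -0.014. With 1 library left out, NKD1 for wt rescue minus GAS41-KO ranged from -0.12 to 0.031, and NOTUM for doxorubicin minus DMSO from -0.011 to 0.057. Genes called for wt rescue against WT numbered 2326 with wt rescue replicate 1 only and 7267 with all 3 libraries. For mut rescue against GAS41-KO the 2164 calls ranged from 1271 without GAS41-KO replicate 3 to 2367 with 1 library left out. They were 1413 without mut rescue replicate 1, 1408 without GAS41-KO replicate 1 and 1364 without GAS41-KO replicate 2. The cause of these shifts was not tested. Replicate numbers were not taken as pairs, because not every same-numbered pair had correlated deviations. In the GAS41 experiment 11 of 18 pairs were over 0.1 (range -0.390 to 0.478) and 8 of 12 libraries correlated best with their own number, a hint from the data and not from the design. In the doxorubicin experiment 1 of 3 pairs was over 0.1 (range -0.393 to 0.150) and 2 of 6 libraries did. With the number as a replicate block 7890 genes were called in GAS41-KO over WT, 9782 in wt rescue over GAS41-KO, 2403 in mut rescue over GAS41-KO, 9081 in mut rescue over wt rescue, 7586 in wt rescue over WT, 7025 in mut rescue over WT and 9238 with doxorubicin. Count models planned as alternatives were not run; the recovered reads were fitted with voom instead. Depth limits SP5, LGR5, ASCL2 and LEF1, which have few reads.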
